A study of Mus musculus with 8 samples.

Results

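Some genes that most tissues use are kept at a low level in pancreatic beta cells and are known as disallowed genes. Here 10 such genes, picked by name out of the 46959 rows of the deposited expression table, are followed through 3 kinds of islet cell: Ldha, Slc16a1, Oat, Acot7, Zfp36l1, Mgst1, Igfbp4, Cxcl12, Pdgfra and Smad3. Of these, 4 (Ldha, Slc16a1, Oat and Igfbp4) reached 1 RPKM (reads per kilobase of exon, scaled to the size of the library) in at least 2 of 8 libraries and were tested. The other 6 did not, and are described by their reads.

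RNA was sequenced from cells sorted by fluorescence out of the islets of adult mice with 3 transgenes: Ins1-H2b-mCherry, a red nuclear reporter under an insulin promoter, Gcg-cre, a Cre recombinase under the glucagon promoter, and a floxed YFP allele that Cre switches on permanently. Transdifferentiated cells carried both colours, that is, an active insulin promoter and an alpha cell lineage label (replicate 1 from male and replicate 2 from female animals). Alpha cells carried YFP (replicates 1 and 2 male, replicate 3 female), and beta cells carried mCherry (replicates 1 and 2 female, replicate 3 male). Each library came from pooled islets of 10 to 12 animals, cultured overnight before sorting, and one passage of the design text speaks of bitransgenic females instead. The lineage label shows that the glucagon promoter was active at some time and does not date the change of hormone. Nothing in the labels says that alpha replicates 1 and 2, or beta replicates 1 and 2, whose titles share a number, are separate pools, so the p-values could partly reflect technical variation.

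The library size recovered from the steps between RPKM values was 1244504 and 2167796 reads in the transdifferentiated libraries, 12914166 to 14096932 in alpha and 14339822 to 21399833 in beta libraries. One read on a gene of 2 kb was thus worth 0.402 and 0.231 RPKM in transdifferentiated libraries, against 0.0355 to 0.0387 in alpha and 0.0234 to 0.0349 in beta libraries. The 6 alpha cell markers summed to 20271 and 20181 RPKM in transdifferentiated cells, 175654 to 204035 RPKM in alpha cells and 620 to 1958 RPKM in beta cells. The 7 beta cell markers summed to 108380 and 117626 RPKM in transdifferentiated cells, 1047 to 1377 RPKM in alpha cells and 148251 to 201593 RPKM in beta cells. Markers of other cell types also differed between the groups. The 3 PP and epsilon cell markers summed to 11439 and 8249 RPKM in transdifferentiated, 7961 to 13025 in alpha and 590 to 1274 in beta cells, and the 4 delta cell markers to 3096 and 2967, 1370 to 3197 and 312 to 891 RPKM in transdifferentiated, alpha and beta cells. The 7 duct markers summed to 270 and 325 RPKM in transdifferentiated, 715 to 1741 in alpha and 272 to 409 in beta cells, and the 10 immune markers to 23.6 and 5.996, 2.96 to 5.01 and 68.2 to 78.4 RPKM in transdifferentiated, alpha and beta cells. All these are bulk samples, in which fewer cells with a transcript and less of it per cell cannot be told apart.

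Beta cells measure glucose by burning it in mitochondria, and insulin is released as ATP rises. Lactate dehydrogenase A, which turns pyruvate into lactate, and the monocarboxylate transporter MCT1 (the product of Slc16a1), which carries pyruvate and lactate across the cell membrane, are the textbook disallowed pair, since they would divert pyruvate out of the cell or let muscle pyruvate in during exercise and trigger insulin release. The other genes on the list act in amino acid, fatty acid and glutathione metabolism, in decay of messenger RNA, and in signalling from growth factors and chemokines, and were catalogued because islets hold less of their RNA than other tissues do.

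The promoters of the 4 tested genes are printed to show what sequence lies at genes with such different levels in the same cells. All 10 genes matched the RefSeq promoter table (GRCm38.p6), with 12 windows of 250 bases before and 50 after an annotated start. Capitals mark 6 strings searched on both strands: CACGTG (an E-box), ACGTG (which lies within it and at hypoxia response elements), GGGCGG (a GC box), the CCAAT box, the TATA box string TATAAA, and the SMAD-binding string GTCTG. Overlapping matches run together in capitals. The windows are Oat chr7:132576349-132576648 on the minus strand, Igfbp4 chr11:99040994-99041293, Slc16a1 chr3:104638414-104638713 and the first of the Ldha windows, chr7:46845554-46845853, these on the plus strand.
Oat: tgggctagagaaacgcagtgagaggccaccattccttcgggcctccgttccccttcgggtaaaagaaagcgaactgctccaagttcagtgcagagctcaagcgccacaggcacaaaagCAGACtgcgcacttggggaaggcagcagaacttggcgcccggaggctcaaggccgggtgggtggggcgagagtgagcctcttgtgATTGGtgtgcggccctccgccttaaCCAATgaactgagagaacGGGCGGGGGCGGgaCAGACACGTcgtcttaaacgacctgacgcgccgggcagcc
Igfbp4: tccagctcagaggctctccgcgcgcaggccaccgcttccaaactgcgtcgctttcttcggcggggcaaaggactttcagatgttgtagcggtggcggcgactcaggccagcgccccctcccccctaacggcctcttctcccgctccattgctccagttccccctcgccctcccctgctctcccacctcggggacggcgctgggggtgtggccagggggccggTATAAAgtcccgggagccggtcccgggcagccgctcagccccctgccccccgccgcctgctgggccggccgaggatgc
Slc16a1: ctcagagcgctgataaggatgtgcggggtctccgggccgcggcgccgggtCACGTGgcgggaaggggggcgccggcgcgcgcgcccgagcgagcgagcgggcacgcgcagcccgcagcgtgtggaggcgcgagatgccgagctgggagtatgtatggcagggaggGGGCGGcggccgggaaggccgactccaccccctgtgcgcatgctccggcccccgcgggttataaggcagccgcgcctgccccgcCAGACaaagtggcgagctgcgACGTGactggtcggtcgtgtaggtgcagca
Ldha: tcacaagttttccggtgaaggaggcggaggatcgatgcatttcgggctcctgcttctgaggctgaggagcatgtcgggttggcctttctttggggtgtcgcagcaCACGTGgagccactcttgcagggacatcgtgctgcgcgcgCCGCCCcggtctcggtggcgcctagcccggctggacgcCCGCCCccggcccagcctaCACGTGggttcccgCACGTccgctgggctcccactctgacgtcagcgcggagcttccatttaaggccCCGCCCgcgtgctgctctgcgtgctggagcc
The Ldha window held CACGTG 2 times, GGGCGG 3 times and, over both strands and inside CACGTG included, ACGTG 5 times. The Slc16a1 window held ACGTG 3 times by the same count, with CACGTG once, and had 42 CpG dinucleotides, more than 97.0% of all promoter windows. The Oat window held CCAAT and GGGCGG 2 times each and ACGTG once, with 22 CpG. In the Igfbp4 window TATAAA was the one string found, beside 27 CpG. Of all 32851 windows in the table, 7.15% held CACGTG, 19.6% ACGTG, 35.7% GGGCGG, 37.4% CCAAT, 13.6% TATAAA and 49.6% GTCTG, and the median window had 7 CpG. CpG counts in the member windows ran between 1 (the second Mgst1 window) and 42. A string match describes letters and is not a bound site.

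**Figure D1:**
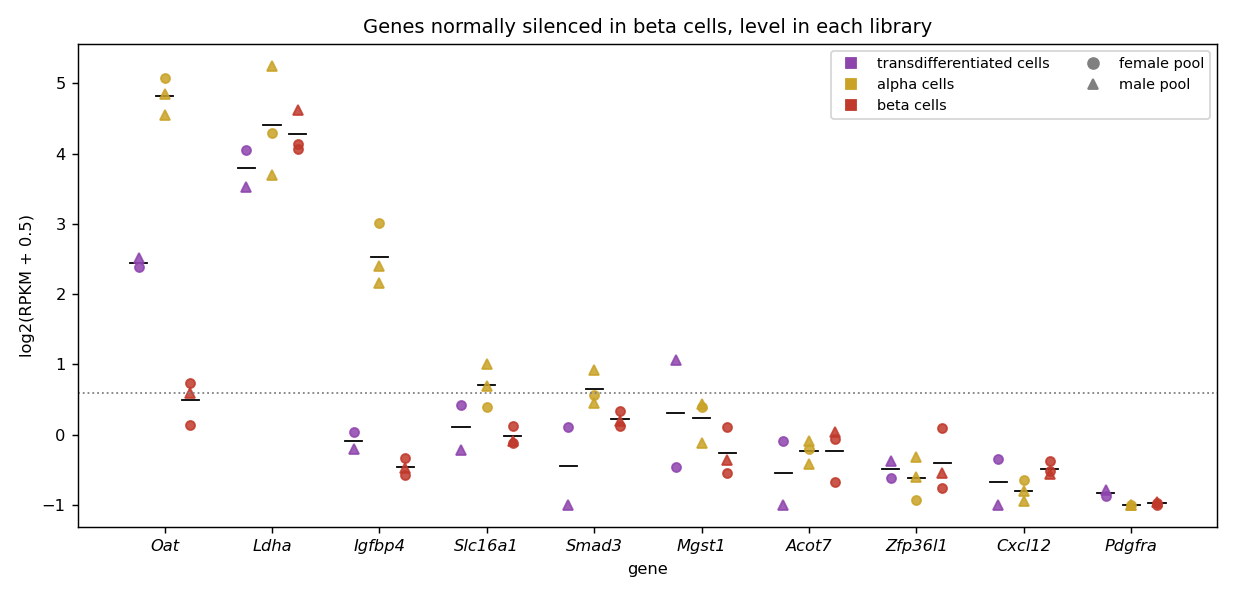
Level of each of the 10 genes in every library, as log2(RPKM + 0.5), with transdifferentiated, alpha and beta libraries side by side (2, 3 and 3 libraries; circles are female and triangles male pools; bars are group means). The dotted line marks 1 RPKM. Oat stands apart in all 3 groups, Igfbp4 is high in alpha cells, Ldha is well above the line in all 8 libraries, and the genes to the right lie mostly below it.

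Oat codes for ornithine aminotransferase, the mitochondrial enzyme that links ornithine to glutamate and proline (chromosome 7, 132557478 to 132576398, minus strand, GRCm38). Its level was 5.22 and 4.71 RPKM (14 and 22 reads) in transdifferentiated cells, 22.8, 28.3 and 33.2 RPKM (636 to 1009 reads) in alpha cells and 0.597, 1.17 and 1.003 RPKM (24 to 54 reads) in beta cells. The 3 groups did not overlap, with transdifferentiated cells between the others. Means were 4.96 ± 0.361 RPKM in transdifferentiated (SD, n = 2), 28.1 ± 5.18 in alpha and 0.924 ± 0.295 in beta cells (SD, n = 3 each), so that transdifferentiated cells held 17.6% and beta cells 3.28% of the alpha mean. On the scale of log2(RPKM + 0.5), which understates changes of low genes, the difference was −2.38 ± 0.23 (SE) for transdifferentiated against alpha cells (adjusted p = 0.000478), 1.97 ± 0.23 for transdifferentiated against beta cells (adjusted p = 0.00538) and 4.35 ± 0.21 for alpha against beta cells (adjusted p = 1.27e-05). Within male pools the 3 differences were −2.18, 1.93 and 4.11, and within female pools −2.69, 1.94 and 4.64. The fit gave every library equal weight, so its SE and p-values, here and below, do not allow for the lower depth of transdifferentiated libraries. Limma voom on recovered reads, which weights values by their depth, gave Oat −2.54 ± 0.40 against alpha cells (adjusted p = 0.00319). Against beta cells it gave 2.52 ± 0.45 (adjusted p = 0.0214). Among genes whose level could be tested, Oat lay above 38.7% in transdifferentiated, 90.2% in alpha and 11.6% in beta cells.

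Igfbp4 codes for a secreted protein that binds insulin-like growth factors and holds them from their receptor (chromosome 11, 99041244 to 99054392, plus strand). Its level was 0.364 and 0.522 RPKM (2 and 5 reads) in transdifferentiated cells, 3.94, 4.77 and 7.57 RPKM (225 to 471 reads) in alpha cells and 0.170, 0.296 and 0.221 RPKM (14 to 28 reads) in beta cells. Transdifferentiated libraries lay far below every alpha library and above every beta library. The transdifferentiated mean of 0.443 ± 0.112 RPKM was 8.16% of the alpha mean of 5.43 ± 1.90 RPKM, and the beta mean of 0.229 ± 0.0636 RPKM was 4.22% of it. Igfbp4 was lower in transdifferentiated than in alpha cells (log2 difference −2.67 ± 0.25, adjusted p = 0.000446) and higher in alpha than in beta cells (3.09 ± 0.23, adjusted p = 8.01e-05). It reached 1 RPKM in alpha libraries alone and came to be tested through them, so these calls are not independent of the filter. In a limma fit of all 26786 genes with any read, the adjusted p was 0.00299 and 0.000749, where 15.0% and 20.7% of genes were called. Transdifferentiated and beta cells differed by 0.43 ± 0.25, with a 95% interval of −0.16 to 1.01 (adjusted p = 0.281). Both means lie below the 0.5 added before the logarithm, which shrinks this difference, so the interval does not bound the fold change in RPKM. Limma voom on recovered reads gave 1.28 ± 0.57 against beta cells (adjusted p = 0.213). Against alpha cells it gave −3.52 ± 0.53 (adjusted p = 0.00253). With 7 reads in both transdifferentiated libraries, the pooled level was 0.465 RPKM with an exact Poisson interval of 0.187 to 0.957, which covers counting error only.

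Transdifferentiated cells could be placed on a line between the beta mean (0%) and the alpha mean (100%) in linear RPKM. Oat lay at 15.8% and 13.9%, and Igfbp4 at 2.59% and 5.64%, in replicates 1 and 2. With reads pooled, Oat was at 14.5% (Poisson interval 9.13% to 21.4%) and Igfbp4 at 4.41% (−0.883% to 13.8%). The 6 alpha cell markers lay at 7.54% to 30.1% (median 10.9%) in replicate 1 and 7.48% to 35.7% (median 15.6%) in replicate 2, and glucagon (Gcg) itself at 10.3% and 10.2%. Oat thus lay within the range of the markers and Igfbp4 below it in both libraries. Oat and Igfbp4 were both highest among beta libraries in replicate 2, where the alpha markers were highest too (1958 RPKM, against 620 and 798 RPKM in beta replicates 1 and 3). The acinar (1961 RPKM, against 66.8 and 898 RPKM), delta (891, against 487 and 312 RPKM) and PP and epsilon markers (1274, against 590 and 727 RPKM) were highest in beta replicate 2 as well. Across the groups, every alpha library exceeded every beta library in the summed alpha, delta, duct, and PP and epsilon markers, as in Oat and Igfbp4. The duct sum was mostly Spp1 (mean 1208 RPKM in alpha and 240.7 in beta cells). The duct markers Krt7 (30.3 and 78.3 RPKM) and Krt19 (1.96 and 6.05 RPKM) went the other way. Of 5 tested duct markers, 2 were called higher and 1 lower in alpha than in beta cells (all tested genes: 16.9% and 26.7%). The part of RNA from other cell types in the Oat and Igfbp4 values was not tested.

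**Figure D2:**
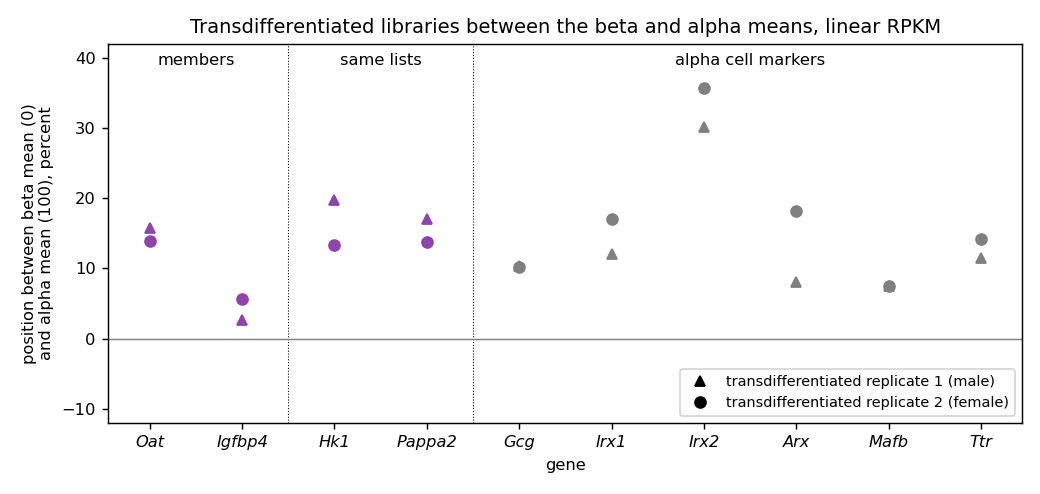
Position of the transdifferentiated libraries between the beta mean (0%) and the alpha mean (100%), in linear RPKM, for Oat and Igfbp4, for Hk1 and Pappa2, alpha-high genes of the lists chosen after their values were seen, and for the 6 alpha cell markers. Triangles are replicate 1 and circles replicate 2. Oat lies at 15.8% and 13.9% among the markers, and Igfbp4 at 2.59% and 5.64% under them.

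Ldha (chromosome 7, 46841475 to 46855627, plus strand) was well transcribed in all 3 groups. Its level was 11.05 and 16.1 RPKM (41 and 104 reads) in transdifferentiated cells, 12.4, 37.5 and 19.1 RPKM (478 to 1501 reads) in alpha cells and 17.2, 16.2 and 24.0 RPKM (954 to 1034 reads) in beta cells. Transdifferentiated libraries overlapped alpha but lay below all beta libraries, and the alpha libraries themselves ranged widely. The distance from beta was small in replicate 2, at 16.09 RPKM against 16.2 RPKM in beta replicate 2. Transdifferentiated against beta, the log2 difference was −1.09 within male and −0.05 within female pools. The beta mean of 19.1 ± 4.27 RPKM stood above 80.3% of tested genes, so that these beta cell preparations were not without Ldha RNA. The log2 difference was −0.60 (95% interval −1.62 to 0.42, adjusted p = 0.338) for transdifferentiated against alpha, −0.50 (−1.52 to 0.52, adjusted p = 0.466) for transdifferentiated against beta and 0.10 (−0.84 to 1.04, adjusted p = 0.855) for alpha against beta cells. Each interval reaches past 1 on the log2 scale in one direction, so equal levels were not shown. Ldhb, the paralogue that favours the reverse reaction, was at 4.61 and 4.11 RPKM in transdifferentiated, 2.94 to 3.25 in alpha and 3.93 to 4.58 in beta cells. The ratio of Ldha to Ldhb RPKM was 2.40 and 3.91 in transdifferentiated, 3.81 to 12.0 in alpha and 4.08 to 5.25 in beta cells.

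Slc16a1 (chromosome 3, 104638668 to 104658462, plus strand) was low in all groups, and near the limit of detection in transdifferentiated cells. It was at 0.363 and 0.834 RPKM (2 and 8 reads) in transdifferentiated cells, 1.12, 1.51 and 0.817 RPKM (51 to 90 reads) in alpha cells and 0.424, 0.591 and 0.441 RPKM (28 to 56 reads) in beta cells. All alpha libraries lay above all beta libraries, while transdifferentiated replicate 2 fell among the alpha values and replicate 1 below every beta library. The log2 difference for alpha against beta cells was 0.74 ± 0.29 (95% interval 0.05 to 1.43) and missed the threshold over all genes (adjusted p = 0.0785). It was −0.61 (−1.35 to 0.14, adjusted p = 0.192) for transdifferentiated against alpha and 0.13 (−0.61 to 0.88, adjusted p = 0.803) for transdifferentiated against beta cells. Slc16a1 and Igfbp4 passed the filter on low values through their alpha libraries alone. Bsg, the chaperone that brings the transporter to the membrane, was at 314 and 379 RPKM in transdifferentiated cells, 368 to 491 RPKM in alpha cells and 314 to 444 RPKM in beta cells, and passed no test. The lactate exporter gene Slc16a3 was at 1.51 and 4.68 RPKM in transdifferentiated, 2.81 to 8.99 in alpha and 2.54 to 3.76 in beta cells, and passed none either.

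Of the 4 genes tested, 2 were lower and 0 higher in transdifferentiated than in alpha cells, where 29.9% of all 13172 tested genes were called (23.2% higher, 6.67% lower). Against beta cells, 1 of 4 was higher and 0 lower, where 12.0% of all genes were called (9.10% higher, 2.90% lower). Between alpha and beta cells, 2 were higher in alpha and 0 lower, where 43.6% of all genes were called (16.9% higher, 26.7% lower). Limma called no member between male and female pools (adjusted p 0.843 to 0.976, and 0 of 4 at an unadjusted p of 0.05), where 0.0456% of all genes did (0.0380% higher and 0.00759% lower in male pools). The median log2 difference over all tested genes was 0.17, 0.09 and −0.05 in these 3 cell comparisons, far smaller than the differences of Oat and Igfbp4. Scaling by median ratios moved these medians to −0.05, −0.07 and 0.02 and the split of all calls to 11.9% higher and 12.2% lower than in alpha cells, 6.31% higher and 7.1% lower than in beta cells, and 20.9% higher and 22.7% lower in alpha than in beta cells. Igfbp4 and Slc16a1 came to be tested through their alpha libraries alone. Igfbp4 is among the 2 lower than in alpha cells and the 2 higher in alpha than in beta cells. With 4 members tested, these counts describe the members and are no measure of the group.

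**Figure D3:**
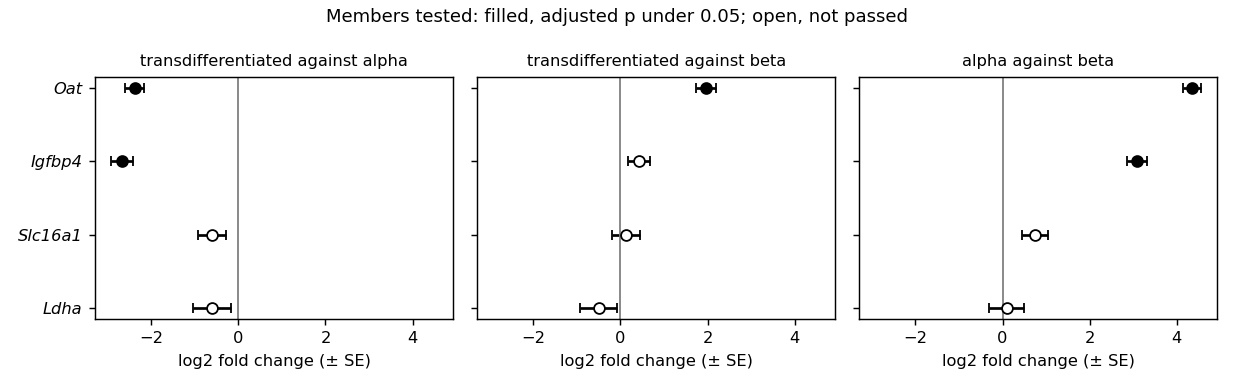
Log2 fold change with its SE for the 4 tested genes in transdifferentiated against alpha, transdifferentiated against beta and alpha against beta cells, on the scale of log2(RPKM + 0.5). Filled points passed an adjusted p of 0.05. Oat passed in all 3 comparisons and Igfbp4 in both that involve alpha cells, at −2.67 and 3.09.

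The 6 genes under the filter were not tested with the others. Smad3 codes for the intracellular carrier of TGF-beta and activin signals. It had 0 and 7 reads in transdifferentiated cells (0 and 0.583 RPKM), against 62 to 104 reads in alpha cells (0.866, 1.40 and 0.973 RPKM) and 51 to 91 reads in beta cells (0.590, 0.767 and 0.642 RPKM). Both transdifferentiated libraries lay below all others, although 3 reads in replicate 1 would already have given 0.435 RPKM. Replicate 2, at 0.583 RPKM on 7 reads, was close to beta replicate 1 at 0.590 RPKM, so its place below the beta libraries is not secure. Pooled, Smad3 was at 0.370 RPKM (Poisson interval 0.149 to 0.763) in transdifferentiated, 1.08 (0.948 to 1.23) in alpha and 0.673 (0.584 to 0.773) in beta cells. In a fit of all 26786 genes with any read it did not pass against alpha cells (log2 difference −1.13, adjusted p = 0.0876), where 15.0% of genes were called.

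Mgst1 codes for a membrane-bound glutathione transferase that detoxifies lipid peroxides. Its level was 1.60 and 0.229 RPKM (4 reads and 1 read) in transdifferentiated cells, 0.423, 0.851 and 0.811 RPKM in alpha cells and 0.186, 0.580 and 0.277 RPKM in beta cells. The value of transdifferentiated replicate 1 rested on 4 reads, and all groups overlapped. In that library the 10 stromal and 8 endothelial markers were also at their highest, at 5.39 and 12.5 RPKM summed, and their part in the value was not tested.

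Zfp36l1 codes for a protein that binds AU-rich elements and speeds the decay of messenger RNA. It had 1 read in each transdifferentiated library (0.269 and 0.155 RPKM), 0.156, 0.299 and 0.0238 RPKM in alpha cells and 0.0898, 0.564 and 0.187 RPKM in beta cells. Its highest value in alpha and in beta cells was in replicate 2, which also had the most RNA of the 8 acinar markers of its group (1547 RPKM in alpha and 1961 RPKM in beta cells, against 188 and 531 RPKM in transdifferentiated cells). Mgst1, Smad3 and Slc16a1 were likewise highest in replicate 2 of both alpha and beta cells. The part of acinar RNA in these values was not tested. Acot7, an acyl-CoA thioesterase, had 0 and 2 reads in transdifferentiated cells (0 and 0.434 RPKM), 0.438, 0.246 and 0.367 RPKM in alpha cells and 0.126, 0.462 and 0.525 RPKM in beta cells, with all groups overlapping. The limit of 3 reads for Acot7 in transdifferentiated replicate 1 was 1.14 RPKM, above every value measured.

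Cxcl12, a chemokine made by stromal cells that draws cells bearing the receptor CXCR4, had 0 and 5 reads in transdifferentiated cells (0 and 0.282 RPKM), 0.0189, 0.0729 and 0.139 RPKM in alpha cells and 0.197, 0.274 and 0.179 RPKM in beta cells. All beta libraries lay above all alpha libraries, the reverse of Slc16a1 and Smad3. The 10 immune markers were likewise highest in beta and lowest in alpha cells, with 0 of 10 at 0 in each beta library and 1 to 5 of 10 at 0 in alpha libraries. The stromal markers did not follow this order, at 2.66 to 3.84 RPKM summed in alpha and 1.76 to 3.05 RPKM in beta cells. The part of immune or stromal RNA in the Cxcl12 values was not tested. Pooled, Cxcl12 was at 0.179 RPKM (Poisson interval 0.0582 to 0.418) in transdifferentiated, 0.0786 (0.0514 to 0.115) in alpha and 0.223 (0.181 to 0.271) in beta cells. Pdgfra, the receptor for platelet-derived growth factor on mesenchymal cells, had 1 read in each transdifferentiated library, 0 reads in all alpha libraries and 0, 2 and 2 reads in beta libraries. The 0 in alpha cells allows up to 0.0212 to 0.0232 RPKM per library at 3 reads. The 10 stromal markers summed to 5.39 and 3.10 RPKM in transdifferentiated, 2.66 to 3.84 in alpha and 1.76 to 3.05 in beta cells. Their part in the Pdgfra values was not tested. None of the 6 was called by limma in the fit of all genes with reads, whereas a voom fit of the recovered reads of all genes called Pdgfra higher in transdifferentiated than in alpha cells (adjusted p = 0.00219) and than in beta cells (adjusted p = 0.00743), on 1 read per library. That fit called 35.5% of all 26784 genes higher than in alpha cells and 37.9% higher than in beta cells, so the call says little of Pdgfra. It also called Smad3 lower in transdifferentiated than in alpha cells (adjusted p = 0.0284), as it did 2.38% of all genes. The annotated genes whose exons overlap Zfp36l1 and Pdgfra on the opposite strand were at 0 RPKM throughout. One of them, Gm26669, shares 1672 of the 2984 exon bases of Zfp36l1. The RNA kit does not mark strand, and how reads on shared bases were counted is not given. The 0 therefore does not show that the shared bases were free of reads, and the low Zfp36l1 values carry this limit.

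**Figure D4:**
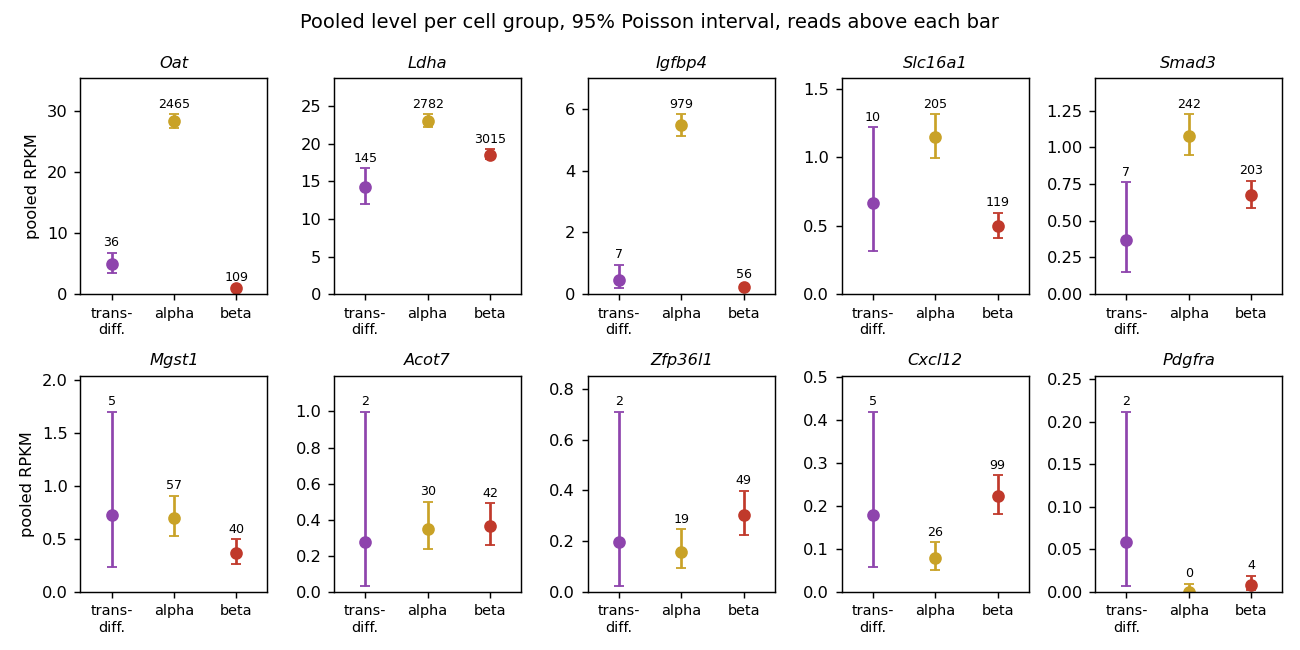
Level of each gene in transdifferentiated, alpha and beta cells, with the reads of a group's libraries pooled, in RPKM, and the exact 95% Poisson interval, which covers counting error only. Numbers give the reads. Transdifferentiated cells had 36 reads for Oat, 145 for Ldha and at most 10 for each of the other genes, and their intervals are the widest in each of those panels.

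Genes that share a pathway with the members were taken from lists chosen with earlier results of these data known. Counts per list are given beside the share of all tested genes called the same way, and no list was tested as a set. With median-ratio scaling, 11.9% of all tested genes were higher and 12.2% lower in transdifferentiated than in alpha cells. Among 18 other genes described as disallowed or low in beta cells, 5 could be tested. Hk1, the high-affinity hexokinase, was at 1.88 and 1.41 RPKM in transdifferentiated, 6.42, 10.1 and 7.23 in alpha and 0.358, 0.427 and 0.409 in beta cells. Like Oat it took a middle place, lower than in alpha cells (log2 difference −1.93, adjusted p = 0.00097) and higher than in beta cells (1.22, adjusted p = 0.0186, which missed the threshold in 5 of 19 alternatives). Cat (catalase) and Cd44 (the hyaluronan receptor) ran the other way: Cat was at 4.61 and 3.53 RPKM in transdifferentiated, 0.474 to 1.08 in alpha and 3.90 to 5.02 in beta cells, and Cd44 at 13.8 and 11.03 RPKM in transdifferentiated, 0.648 to 0.880 in alpha and 3.43 to 8.74 in beta cells. Both were higher in transdifferentiated than in alpha cells, by 1.86 and 3.42 on the log2 scale, and neither passed against beta cells.

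Of 16 tested genes of lactate, pyruvate and NADH shuttles, 9 were higher and 0 lower in transdifferentiated than in alpha cells (all tested genes: 23.2% and 6.67%). Limma called 0 of the 16 against beta cells (all tested genes: 12.0%). At an unadjusted p of 0.05, 1 was higher and 3 lower than in beta cells, limma voom on the reads of these genes called 0, and median-ratio scaling called 3 lower. The 9 depend on the scaling and on single libraries: 2 were higher and 1 lower with median-ratio scaling, 3 higher and 1 lower with quantile normalization, and 3 to 8 higher with 1 library left out. Pcx, pyruvate carboxylase, was at 48.0 and 39.1 RPKM in transdifferentiated, 8.23 to 8.63 in alpha and 41.4 to 47.5 in beta cells (2.31 against alpha, adjusted p = 2.35e-05). Mdh1 and Got1, cytosolic enzymes of the malate-aspartate shuttle, were higher than in alpha cells by 0.82 and 0.94, the second missing the threshold in 6 of 19 alternatives. Around Oat, 6 of 12 genes of ornithine, proline and glutamate metabolism were higher and 2 lower than in alpha cells (all tested genes: 23.2% and 6.67%). Of these 12, 4 were higher than in beta cells (all tested genes: 9.10%). With transdifferentiated replicate 1 left out, 2 were higher than in alpha cells, and under the other alternatives 4 to 6, while those higher than in beta cells numbered 1 to 4 over all alternatives. Arg1, the arginase that makes ornithine, was at 20.7 and 14.4 RPKM in transdifferentiated, 16.3 to 24.2 in alpha and 1.93 to 4.05 in beta cells (2.41 against beta, adjusted p = 0.00561). Gatm, which makes the creatine precursor from arginine and releases ornithine, was at 47.4 and 53.6 RPKM in transdifferentiated, 15.4 to 22.0 in alpha and 14.8 to 26.7 in beta cells, higher than in alpha cells by 1.48 and than in beta cells by 1.27 on the log2 scale, the second missing the threshold in 6 of 19 alternatives.

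Around Igfbp4, of 8 other tested genes of the insulin-like growth factor axis 2 were higher and 1 lower than in alpha cells (all tested genes: 23.2% and 6.67%). Against beta cells, 2 of the 8 were higher (all tested genes: 9.10%). Pappa2, a protease that cuts IGF-binding proteins, was at 31.8 and 27.0 RPKM in transdifferentiated, 134 to 171 in alpha and 5.90 to 9.71 in beta cells (−2.28 against alpha and 1.84 against beta). Igfbp7 was at 142 and 111 RPKM in transdifferentiated, 143 to 192 in alpha and 36.2 to 54.6 in beta cells, higher than in beta cells by 1.39. The receptor gene Igf1r was at 27.8 and 48.7 RPKM in transdifferentiated, 3.47 to 7.07 in alpha and 42.2 to 94.8 in beta cells, higher than in alpha cells by 2.63. Of 12 TGF-beta and activin genes 0 were higher and 1 lower than in alpha cells (all tested genes: 23.2% and 6.67%). Against beta cells, 2 of them were higher and 1 lower (all tested genes: 9.10% and 2.90%). The 1 lower than in alpha cells, Tgfb2, reached 1 RPKM in alpha libraries alone, through which it came to be tested, and so did the lower genes Pdgfd and Acot1 of the lists below. Smad7, the inhibitor of SMAD3 signalling, was at 10.1 and 8.47 RPKM in transdifferentiated, 8.44 to 11.7 in alpha and 2.96 to 3.41 in beta cells.

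Genes listed with the low members did not share one course. The close paralogues Zfp36l2, Mgst3 and Smad2 differed from alpha cells by 0.19, 0.13 and 0.15 on the log2 scale. Limma called none of these 3 differences (adjusted p = 0.382, 0.745 and 0.255). The genes named below other than Zfp36 were picked for the size of their change. Zfp36 was at 31.8 and 30.6 RPKM in transdifferentiated, 46.4 to 74.5 in alpha and 15.6 to 22.7 in beta cells, lower than in alpha cells by 1.02 on the log2 scale. Of 12 tested genes of the ZFP36 family and RNA decay, 1 was higher and 2 lower than in alpha cells and 1 higher than in beta cells. Over all tested genes the shares were 23.2% and 6.67% against alpha cells and 9.10% higher than in beta cells. The same shares apply to the 3 lists that follow. Acot11, another thioesterase, was at 4.78 and 5.56 RPKM in transdifferentiated, 0.448 to 0.516 in alpha and 5.12 to 6.60 in beta cells, and led 5 of 12 acyl-CoA enzymes that were higher than in alpha cells, with 1 lower (2 higher and 2 lower with median-ratio scaling). Gstm1, a cytosolic glutathione transferase, was at 148 and 103 RPKM in transdifferentiated, 7.43 to 17.7 in alpha and 70.4 to 101 in beta cells, one of 6 of 10 transferases higher than in alpha cells, with 0 lower (4 higher with median-ratio scaling). Of 5 tested genes of the CXCL12 and PDGF axes, 3 were higher and 1 lower than in alpha cells, and limma called 0 against beta cells, with 0 also at an unadjusted p of 0.05 and by limma voom on the same genes.

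**Figure D5:**
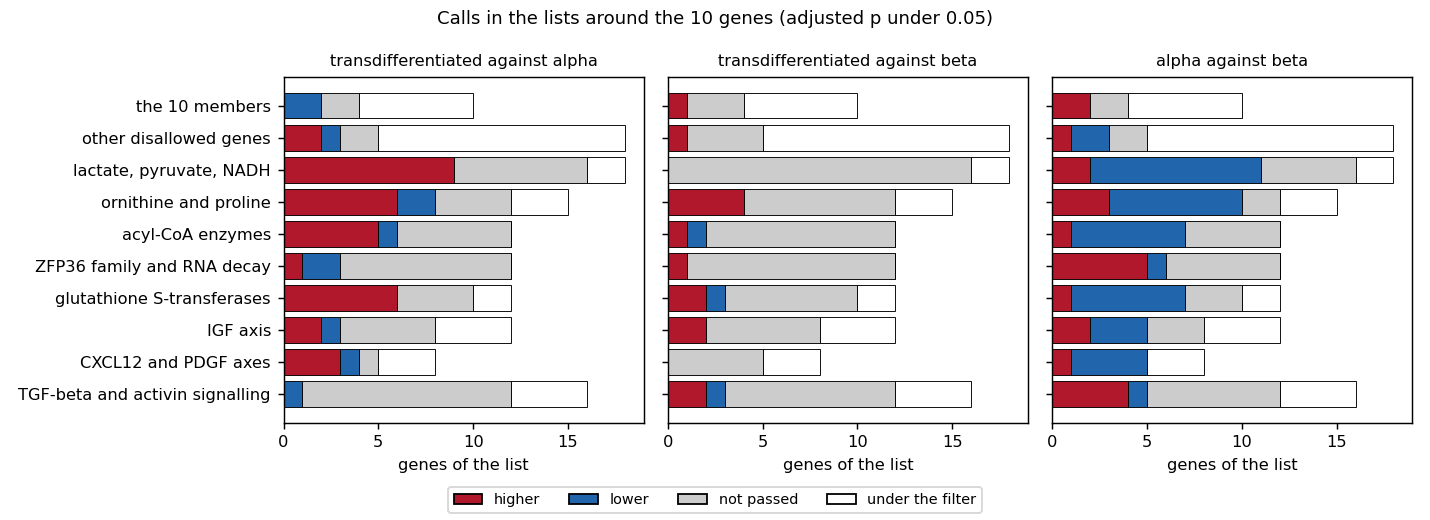
Number of genes called higher (red), called lower (blue), not passed (grey) and under the filter on low values (white) among the 10 members and 9 lists, in transdifferentiated against alpha, transdifferentiated against beta and alpha against beta cells. Of the 16 tested lactate, pyruvate and NADH genes, 9 were higher in transdifferentiated than in alpha cells and 0 passed against beta cells. Over all tested genes, 23.2% were higher and 6.67% lower than in alpha cells, and 12.0% were called against beta cells.

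Over the 8 libraries, 428 tested genes had a Pearson correlation above 0.95 with Oat and 196 with Igfbp4, against 4 with Slc16a1 and 0 with Ldha. Among the closest were Sytl2 (0.998) and Ndst4 (0.997) for Oat, Dnah11 (0.992), Atxn7l1 (0.991) and Mir6953 (0.990) for Igfbp4, Ybx1 (0.974), Mex3a (0.957) and Iffo2 (0.954) for Slc16a1, and Zc3h14 (0.932), A330069E16Rik (0.896) and Ak4 (0.879) for Ldha. Mir6953 and Dnah11, like Igfbp4, reached 1 RPKM in alpha libraries alone, through which they came to be tested. Mir6953 was at 1.139, 1.095 and 2.086 RPKM in alpha libraries and at 0 in all others, near the limit of detection for so short a gene. These correlations describe the libraries, which share their 3 cell groups and differ in depth.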

How the data were processed

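Libraries of 8 pools of sorted islet cells were analysed as RPKM values that the authors made and deposited. The notes of the submitters on processing name STAR 2.5, featureCounts, edgeR 3.14.0 and the build GRCm38.p4. For annotation, strand setting and library size the sources used here give nothing. The TruSeq RNA kit v2 does not mark strand. Whole reads were recovered from the steps of the RPKM with exon lengths of GENCODE M21: 19906 of 25349 matched genes came out whole within 0.01 read, and reads were had for 26784 of 26786 genes with any.

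Genes with RPKM of at least 1 in at least 2 libraries (13172) were fitted with limma 3.58.1 (R 4.3.3) on log2(RPKM + 0.5), with cell group and sex as terms and a trend in the variance, and p-values were adjusted by Benjamini-Hochberg over all genes tested, with 0.05 as threshold. 4 rows with repeated names were left out. The code was tested on simulated data. Oat, Ldha and the rest of the 10 members are named, and of each list at most 3 other genes with the largest change called in transdifferentiated cells, plus close paralogues and partners. The members and lists were chosen with earlier results of these data known. The fit was repeated under 19 alternatives, covering the pseudocount, filter, scaling, sex term, recovered reads and each library left out. Median log2 changes of all genes were 0.17, 0.09 and −0.05 in transdifferentiated against alpha, transdifferentiated against beta and alpha against beta cells. Some genes that this rule would name are not reported here.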

Additional observations from a re-analysis of the deposited data

How the results depend on the processing

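Oat passed in all 3 cell comparisons, and Igfbp4 in both with alpha cells, under all 19 alternatives. For Oat the log2 difference ran between −2.78 and −2.07 in transdifferentiated against alpha and between 1.61 and 2.52 in transdifferentiated against beta cells. For Igfbp4 it ran between −3.52 and −2.17 in transdifferentiated against alpha and between 0.28 and 1.28 in transdifferentiated against beta cells. Ldha passed in none. Slc16a1 passed in alpha against beta cells in 2 of 16 alternatives that tested it, both by limma voom on recovered reads. Each alpha or beta library was left out in turn. The counts of members called stayed at 2, 1, 2 and 0 in transdifferentiated against alpha, transdifferentiated against beta, alpha against beta and male against female. In these fits 4.06% to 6.19% of all genes were lower in transdifferentiated than in alpha cells. From 1.44% to 7.16% were higher in transdifferentiated than in beta cells, and 7.67% to 16.9% higher in alpha than in beta cells. Limma voom on recovered reads with no filter, an alternative chosen after seeing the data, called 4 members in transdifferentiated against alpha and 2 in transdifferentiated against beta cells, where it called 35.5% of all genes higher and 2.38% lower, and 37.9% higher and 1.39% lower. These added Pdgfra (log2 difference 4.75, adjusted p = 0.00219, and 3.38, adjusted p = 0.00743), which had 1 read in each transdifferentiated library, and Smad3 (−2.28 against alpha cells, adjusted p = 0.0284). Smad3 also passed against alpha cells under median-ratio scaling (−1.22, adjusted p = 0.041). No paired analysis was possible because no title number is shared between the groups. Sex was a term of the fit, and adding the letter b of some titles, whose meaning is not given, left the counts of members called at 2, 1, 2 and 0. Depth limits the 6 low genes, of which transdifferentiated cells held 2 to 7 reads each in both libraries together. It also limits the tested genes Igfbp4 and Slc16a1, with 7 and 10 reads there. Calls in the pathway lists varied more over the 19 alternatives: the tested lactate, pyruvate and NADH genes had 0 to 2 higher and 0 to 3 lower in transdifferentiated than in beta cells, the IGF axis 1 to 5 higher than in alpha and 2 to 5 higher than in beta cells, and the TGF-beta list 0 to 2 higher than in alpha and 1 to 4 higher than in beta cells. Over the same alternatives, 10.2% to 35.5% of all genes were higher than in alpha and 1.01% to 37.9% higher than in beta cells. No gene of these lists that was called reversed its direction.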
